A study of Mus musculus with 20 samples.

Results

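WT mouse embryos at the 4-cell stage, neither electroporated nor mutated as far as the labels say, were compared with siControl embryos at the late 2-cell stage. Members were taken by their titles: 2 WT 4-cell libraries and 2 siControl late 2-cell libraries, 4 of the 16 RNA libraries of the series. Embryos of both groups came from superovulated oocytes fertilised in vitro and grown in KSOM medium. WT embryos were collected 48 h after insemination. siControl embryos had been electroporated with non-targeting siRNA at 3 h and were collected at 36 h. Each library was made from a pool of 10 embryos with the SMART-Seq v4 PLUS kit, which copies polyadenylated RNA into full-length cDNA. The labels give no strain and no sex, and mark all libraries with the same batch number. The WT libraries belong to the knockout experiment of the series and the siControl libraries to its knockdown experiment. Every difference below therefore joins stage, electroporation and experiment, and these cannot be told apart. Nothing in the labels says whether the pools of a group came from separate matings or fertilisations, so p-values measure a spread between pools only. That spread was estimated over all 16 RNA libraries of the series, in 7 groups, and not from these 4 pools alone.

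In the mouse embryo, RNA stored in the egg is degraded after fertilisation while the embryo's own genome starts transcription, with its major wave in the 2-cell embryo. That wave includes a short-lived burst of genes such as the Zscan4 cluster, and is followed by transcription of the genes for ribosomes, energy supply and protein turnover that support cleavage. Expression was measured as a share of all RNA in a pool, so fewer copies per embryo and a smaller share of a growing total cannot be told apart, nor can fewer cells of a type and less RNA per cell.

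Summed expected counts were 14329188 and 17871206 in the WT libraries and 33757884 and 22435872 in the siControl libraries, and 14974 and 14844 genes had a count in WT against 17841 and 17261 in siControl. Log2 CPM correlated at 0.922 across genes between the WT libraries and at 0.926 between the siControl libraries, while correlations between the groups ran from 0.736 to 0.805. Below, WT stands for the WT 4-cell pools and siControl for the siControl late 2-cell pools. Levels are CPM over TMM-scaled library sizes, given for replicate 1 and replicate 2 of each group. A fold change is WT over siControl on the log2 scale, in brackets with the standard error of the fit, and a gene said to be called at a value has that log2 fold change. Where a group had 3 counts or fewer, the fitted fold change depends on the prior count and is no bound. A gene was called where its adjusted p in edgeR's quasi-likelihood test was under 0.05 over the 14687 genes tested. The CPM of the groups did not overlap for 10569 of these genes, so groups without overlap are common and mark no gene out.

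The difference between the groups was wide: 2971 genes were higher in WT 4-cell embryos, 20.2% of those tested, and 2694 were lower, 18.3%. Falls were larger than rises. Past a log2 fold change of 3 there were 219 genes called higher and 1178 called lower, and the median change was 1.56 among genes called higher and -2.71 among genes called lower. Over all genes tested the median was -0.21. Genes at 0 in both libraries of a group were also unevenly split: 599 genes were at 0 in WT, of which 358 were called lower, and 26 were at 0 in siControl, of which 19 were called higher. Depth was lower in WT. After every library was thinned at random to the smallest one, 616 genes were at 0 in WT and 37 in siControl, and 2993 genes were called higher and 2737 lower. Among the 2336 genes with a mean over 100 CPM in either group the order was the other way, with 1164 called higher and 517 called lower. Genes called higher took up 61.3% and 65.3% of all counts in the WT libraries and 26.3% and 33.8% in the siControl libraries. Those called lower took up 9.19% and 6.68% in WT against 40.6% and 30.0% in siControl, shares that follow from how the genes were chosen. Leaving out a library changed these counts: without WT replicate 2, 2162 genes were called higher and 1348 lower, and without siControl replicate 1, 2068 and 1576. Without WT replicate 1 there were 2620 and 2207, and without siControl replicate 2, 2660 and 2217. Of the genes called in all 4 libraries together, 1703 rises and 937 falls were called in each of these fits. Scaling by DESeq2 size factors moved the median of all genes by -0.19, which turned the split to 2518 higher and 3111 lower.

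**Figure D1:**
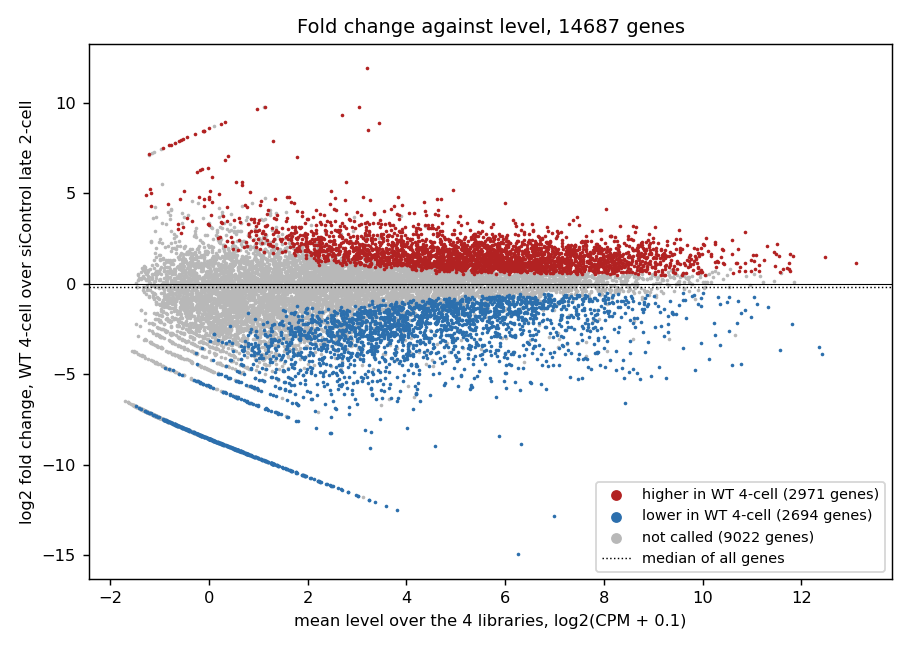
Log2 fold change of WT 4-cell over siControl late 2-cell embryos (y axis) against the mean level over the 4 libraries as log2(CPM + 0.1) (x axis), 1 point per gene. The 2694 genes called lower reach further from 0 than the 2971 called higher, and the diagonal line below 0 holds genes at 0 in both WT libraries.

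RNA of oocyte and maternal genes was lower in WT. Of 59 such genes tested, 37 were called lower (62.7%, against 18.3% of all genes) and 1 was called higher, with a median log2 fold change of -2.59. Their mean level was 4.39 and 3.63 log2 CPM in WT, against 6.84 and 6.22 log2 CPM in siControl. Omt2a, which carries its name from oocyte maturation, stood at 749 and 650.2 CPM in WT, against 12966 and 7422 CPM in siControl (-3.87 ± 0.77, adjusted p = 0.00251). Its neighbour Omt2b was at 818 and 856 CPM in WT and 11955 and 7332 CPM in siControl (-3.53 ± 0.68, adjusted p = 0.0019). These were among the most abundant RNAs of the siControl pools, and their WT values lay far below both of them, although reads shared between the near-identical copies make the split between them uncertain. Oog3, of the oogenesin family of oocyte genes, was at 679 and 215 CPM in WT and 5643 and 5547 CPM in siControl (-3.65 ± 0.69, adjusted p = 0.00176). Oog1 of the same family had no read in either WT library and 227 and 77.8 CPM in siControl, at least 1678-fold lower with a floor of 3 counts over the group (adjusted p = 0.0349). Its call was lost without any single library of the 4, at adjusted p from 0.0527 to 0.144.

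Among maternal genes with the smallest p values were oocyte genes of moderate level. Fbxw15, an oocyte F-box gene, was at 34.03 and 28.2 CPM in WT and 217 and 198 CPM in siControl (-2.74 ± 0.29, adjusted p = 1.32e-05). Fbxw24, of the same gene family, was at 167 and 70.3 CPM in WT and 879 and 646 CPM in siControl (-2.68 ± 0.39, adjusted p = 0.00012). Npm2, the egg nucleoplasmin that handles histones in early chromatin, was at 31.9 and 31.5 CPM in WT and 172 and 115 CPM in siControl (-2.18 ± 0.29, adjusted p = 6.07e-05). In all 3 genes the groups did not overlap, as in 10569 of the 14687 genes tested. RNA for secreted and coat proteins of the oocyte was lower too: Bmp15, an oocyte growth factor, was at 69.1 and 16.02 CPM in WT and 745 and 385 CPM in siControl, and Zp2, of the zona pellucida, at 34.7 and 16.6 CPM in WT and 97.7 and 102 CPM in siControl, a call lost without WT replicate 2 (adjusted p = 0.0593). The gene of the list called higher was Dppa3, whose protein protects the maternal genome from loss of methylation. It stood at 10779.6 and 13426 CPM in WT, against 5227 and 5818 CPM in siControl (1.13 ± 0.22, adjusted p = 0.00098), the largest rise in CPM by the rule for named genes. The list had 17 falls without WT replicate 2 and 19 without siControl replicate 1, in place of 37.

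RNA of the machinery that clears maternal messages went both ways, with 7 of 32 genes called higher and 9 called lower (21.9% and 28.1%, median -0.17). Btg4, the oocyte adaptor that brings the CCR4-NOT deadenylase to messages, was at 45.9 and 43.4 CPM in WT and 1734 and 406 CPM in siControl (-4.58 ± 1.59), a call lost without WT replicate 1 (adjusted p = 0.155), WT replicate 2 (0.184) or siControl replicate 1 (0.185). Cnot7, a catalytic deadenylase of the complex, was called lower at -1.69 ± 0.35. Cnot6l, another deadenylase, was called at -2.25 ± 0.75 and lost its call without the same 3 libraries, at adjusted p up to 0.184. The scaffold of the complex, Cnot1, went the other way, at 363 and 313 CPM in WT and 103 and 136 CPM in siControl (1.50 ± 0.20, adjusted p = 5.28e-05). Rqcd1, another subunit of the complex, was at 118 and 127 CPM in WT and 33.6 and 18.5 CPM in siControl (2.23 ± 0.31, adjusted p = 8.30e-05). Ythdf2, a reader of methylated adenosine that directs RNA decay, was at 391 and 400.3 CPM in WT and 121 and 180.1 CPM in siControl (1.40 ± 0.24, adjusted p = 0.000357). Decapping genes went both ways: the decapping enzyme Dcp2 was called at -2.16 and the decapping enhancer Edc3 at 2.31, the second of which was lost without WT replicate 1 (adjusted p = 0.0781) or siControl replicate 1 (0.12). Lsm1, of the ring that binds shortened messages, was at 70.9 and 65.5 CPM in WT and 164 and 133 CPM in siControl (-1.12 ± 0.22, adjusted p = 0.00105). 

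Genes of the 2-cell burst were lower at the median, with a wide spread between the WT pools. Of 45 tested, 12 were called lower (26.7%, against 18.3% of all genes) and 4 higher (8.89%), at a median of -1.89. Mean levels were 5.15 and 3.10 log2 CPM in WT and 6.12 and 6.60 log2 CPM in siControl, so that WT replicate 1 held more of these transcripts than WT replicate 2. Zscan4d, of a zinc-finger cluster that marks the 2-cell embryo, was at 39.7 and 5.91 CPM in WT and 233 and 336 CPM in siControl (-3.64 ± 0.80, adjusted p = 0.00421). Zscan4f was at 44.2 and 6.49 CPM in WT and 630.2 and 633 CPM in siControl, and Zscan4c at 41.1 and 0 CPM in WT and 404 and 523 CPM in siControl. The call of Zscan4f was lost without WT replicate 2 (adjusted p = 0.0671), and that of Zscan4c without either siControl library (0.0783 and 0.082). Usp17le, of a cluster of deubiquitinase genes, was at 0 in WT and 6.21 and 3.39 CPM in siControl, at least 53-fold lower in WT, a call lost without WT replicate 2 (adjusted p = 0.0553). Tmem92, a 2-cell membrane protein gene, was called at -2.70 ± 0.85, and lost its call without WT replicate 2 (0.127) or siControl replicate 2 (0.0574). Zfp352, another 2-cell zinc-finger gene, was at 75.1 and 1.75 CPM in WT and 296 and 426 CPM in siControl but was not called. It passed without WT replicate 1 (adjusted p = 0.0261), with limma on TPM (0.00281) and with the replicate block (0.0453). Reads shared within the Zscan4 and Usp17l clusters leave the split among their copies uncertain. Without WT replicate 1 the list had 22 falls at a median of -4.06, and without WT replicate 2 it had 5 at a median of -1.11. It had 9 falls without siControl replicate 1 and 7 without siControl replicate 2.

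Members called higher were not part of the Zscan4 burst. Dppa2, which with Dppa4 primes 2-cell and developmental genes for transcription, was at 1257 and 2226 CPM in WT and 426 and 690.0 CPM in siControl (1.64 ± 0.30, adjusted p = 0.000646). Pramel7, a gene of cleavage embryos, was at 827 and 1248 CPM in WT and 141 and 271 CPM in siControl (2.33 ± 0.32, adjusted p = 6.74e-05). Eif1a, a translation initiation factor, was at 599 and 684 CPM in WT and 135 and 227 CPM in siControl (1.83 ± 0.31, adjusted p = 0.000347). In these 3 genes every WT value exceeded both siControl values. Dppa4 was at 695 and 795 CPM in WT and 425 and 635 CPM in siControl and was not called (adjusted p = 0.0549). It passed without siControl replicate 2 (adjusted p = 0.00574) and with counts thinned to the smallest library (0.0466).

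Obox homeobox genes, which encode regulators of genome activation, went in opposite directions. Obox3, made by the embryo, was at 114 and 14.4 CPM in WT and 1095 and 2460.0 CPM in siControl (-4.80 ± 1.11, adjusted p = 0.0068). Obox5 and Obox1, present in the oocyte, were called lower at -3.84 ± 1.33 (adjusted p = 0.0424) and -4.14 ± 1.48 (adjusted p = 0.047). Both lost their calls when any library but siControl replicate 2 was left out, at adjusted p from 0.107 to 0.224, and under another filter. Obox6 was at 2009.7 and 2558 CPM in WT and 874 and 1499.5 CPM in siControl (0.94 ± 0.28, adjusted p = 0.0154), and lost its call without WT replicate 2 (adjusted p = 0.109) and without siControl replicate 1 (adjusted p = 0.167).

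RNA for the translation apparatus was higher across its parts. Of 88 ribosomal protein genes, which encode the structural proteins of the ribosome, 82 were called higher and 0 lower (93.2%, against 20.2% of all genes), at a median of 1.86. By sign, 86 of the 88 fold changes were positive. Summed over the family, CPM were 51700 and 65600 in WT and 14800 and 21400 in siControl. Rpl13, a large-subunit protein, was at 609 and 780.3 CPM in WT and 79.9 and 116 CPM in siControl (2.83 ± 0.26, adjusted p = 6.21e-06). Rpl35a was at 429 and 532 CPM in WT and 62.6 and 93.6 CPM in siControl (2.62 ± 0.24, adjusted p = 6.21e-06). Rpsa, a small-subunit protein, was at 361 and 397 CPM in WT and 82.3 and 81.2 CPM in siControl (2.21 ± 0.20, adjusted p = 6.21e-06). Under the alternatives run 78 to 84 members were called higher.

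Nucleolar genes followed, with 29 of 38 ribosome biogenesis genes called higher and 0 lower (76.3%, median 1.24). Ddx21, a helicase of ribosomal RNA transcription and processing, was at 469 and 505 CPM in WT and 59.7 and 94.4 CPM in siControl (2.66 ± 0.23, adjusted p = 6.21e-06). Ncl, encoding nucleolin, was at 2109.5 and 2164 CPM in WT and 528 and 641 CPM in siControl (1.87 ± 0.17, adjusted p = 6.21e-06). Heatr1, needed for pre-ribosomal RNA synthesis, was at 145 and 165 CPM in WT and 17.05 and 28.5 CPM in siControl (2.77 ± 0.26, adjusted p = 6.76e-06). The 3 genes had no overlap between groups. Npm1, encoding nucleophosmin and among the largest rises in CPM, was at 4598 and 6185 CPM in WT and 1457 and 2231 CPM in siControl (1.55 ± 0.23). The transcription factor of ribosomal RNA genes, Ubtf, was called higher at 2.50.

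Translation factors had 33 of 40 members called higher and 0 lower (82.5%, median 1.54). Eif4g1, the scaffold of the cap-binding complex, was at 123 and 88.2 CPM in WT and 18.5 and 15.00 CPM in siControl (2.66 ± 0.26, adjusted p = 7.57e-06). Eif3c, a core subunit of initiation factor eIF3, was at 355 and 335 CPM in WT and 48.5 and 62.7 CPM in siControl (2.63 ± 0.23, adjusted p = 5.53e-06). Eif3b, of the same complex, was at 98.4 and 91.7 CPM in WT and 12.3 and 18.4 CPM in siControl (2.63 ± 0.29, adjusted p = 1.85e-05). The elongation factor subunit Eef1d was at 279 and 374 CPM in WT and 55.3 and 73.4 CPM in siControl (2.34 ± 0.20, adjusted p = 5.53e-06). All 4 had WT values well clear of the siControl values. Under the alternatives 25 to 34 factors were called higher, the fewest when the spread was estimated from the 4 compared libraries alone.

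**Figure D2:**
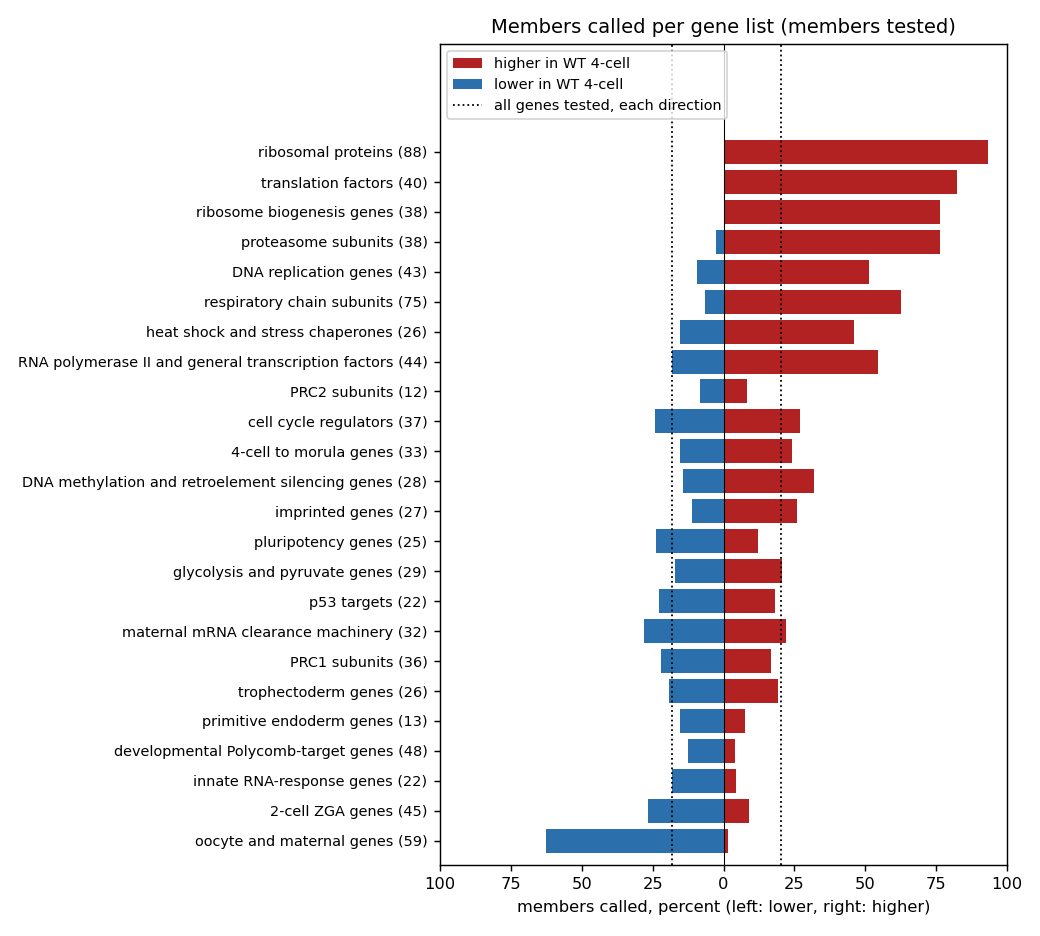
Percent of the tested members of each gene list called lower (blue, to the left) or higher (red, to the right) in WT 4-cell embryos, with the number tested in brackets, lists of at least 10 members and dotted lines at the percentages of all genes tested. Ribosomal proteins reached 93.2% higher, and oocyte and maternal genes 62.7% lower.

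Protein turnover and folding genes were higher as well. Of 38 proteasome subunits, 29 were called higher and 1 lower (76.3% and 2.63%, median 1.15). Psma7, of the catalytic core's outer ring, was at 508 and 641 CPM in WT and 57.9 and 69.4 CPM in siControl (3.17 ± 0.25, adjusted p = 3.81e-06). Psmd13, of the regulatory particle, was at 80.1 and 94.1 CPM in WT and 9.79 and 21.4 CPM in siControl (2.49 ± 0.32, adjusted p = 4.39e-05). Both were separate between the groups, and Psmc5, an ATPase of the same particle, was called higher at 1.84 ± 0.25. The member called lower was Psme4, a proteasome activator also known from the male germ line, at 97.97 and 83.3 CPM in WT and 295 and 217 CPM in siControl (-1.50 ± 0.26). Only 17 subunits were called higher when the spread came from the 4 compared libraries alone.

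Of 26 chaperone and stress genes, 12 were called higher and 4 lower (46.2% and 15.4%, median 0.81). When the spread came from the 4 compared libraries alone, 8 were called higher and 2 lower. Hspa8, the constitutive Hsp70, was at 2699.9 and 3791 CPM in WT and 300.1 and 584 CPM in siControl (2.88 ± 0.39, adjusted p = 7.62e-05). Hsp90ab1, the constitutive Hsp90, was at 1718 and 1959 CPM in WT and 286 and 349.9 CPM in siControl (2.53 ± 0.27, adjusted p = 1.37e-05). Stip1, the co-chaperone that links them, was at 693 and 928 CPM in WT and 131 and 209 CPM in siControl (2.26 ± 0.27, adjusted p = 2.76e-05). The falls included stress-responsive members. Atf3, an immediate-early stress factor, was at 0 in WT and 12.4 and 7.83 CPM in siControl, a call lost without WT replicate 1 (adjusted p = 0.053) or WT replicate 2 (0.0682), and Hspb1, a small heat shock protein, was at 27.5 and 18.4 CPM in WT and 82.00 and 99.6 CPM in siControl (-1.98 ± 0.36).

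Nuclear genes for the respiratory chain had 47 of 75 members called higher and 5 lower (62.7% and 6.67%, median 0.88). Uqcrfs1, the iron-sulphur protein of complex III, was at 108 and 107 CPM in WT and 18.9 and 23.8 CPM in siControl (2.33 ± 0.21, adjusted p = 6.21e-06). Sdhd, a membrane anchor of complex II, was at 88.6 and 101 CPM in WT and 22.3 and 27.1 CPM in siControl (1.94 ± 0.24, adjusted p = 3.44e-05). Atp5a1, of the ATP synthase head, was at 329 and 322 CPM in WT and 92.1 and 98.3 CPM in siControl (1.77 ± 0.20, adjusted p = 2.03e-05). In all 3 the pools of a group lay close together. Glycolysis and pyruvate genes had no such shift, with 6 of 29 called higher and 5 lower (20.7% and 17.2%) and a median of -0.10, close to that of all genes. Single steps went both ways. The hexokinase Hk1 was called at 2.74, and Eno1, encoding enolase, was at 31.6 and 28.01 CPM in WT and 6.96 and 7.61 CPM in siControl (2.03 ± 0.48, adjusted p = 0.00392). Ldhb, a lactate dehydrogenase subunit abundant in the egg, was at 229 and 111 CPM in WT and 674 and 364 CPM in siControl (-1.61 ± 0.38, adjusted p = 0.00463), and lost its call without WT replicate 2 (0.0594) or siControl replicate 1 (0.0562). Pdk2, a kinase that shuts down pyruvate dehydrogenase, was called at -3.26 ± 1.07 and lost its call without the same libraries (0.151 and 0.129).

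Of 44 genes for RNA polymerase II and the general transcription factors, 24 were called higher and 8 lower (54.5% and 18.2%, median 0.70). Supt6, an elongation factor, was at 49.1 and 31.7 CPM in WT and 6.28 and 5.93 CPM in siControl (2.73 ± 0.31, adjusted p = 1.85e-05). Gtf2h3, of the TFIIH complex that opens promoters, was at 166 and 196 CPM in WT and 39.00 and 49.6 CPM in siControl (2.03 ± 0.25, adjusted p = 3.39e-05). Gtf2h2 of TFIIH was called at 1.89 ± 0.21, and the polymerase's catalytic subunit Polr2a at 1.53, the second lost without WT replicate 1 (adjusted p = 0.079) or either siControl library (0.0542 and 0.0995). Polr2g, a polymerase subunit, went down, at 142 and 107 CPM in WT and 398 and 460.1 CPM in siControl (-1.79 ± 0.21, adjusted p = 2.41e-05). The TATA-binding protein gene Tbp was at 192 and 187 CPM in WT and 80.4 and 104 CPM in siControl (1.04 ± 0.21), while its oocyte paralogue Tbpl2 was at 0 and 0.117 CPM in WT and 8.70 and 3.62 CPM in siControl (-6.58 ± 1.91), a call lost without WT replicate 1 (adjusted p = 0.0787) or siControl replicate 1 (0.0701). Without siControl replicate 1 the list had 15 rises, and with the 4 libraries alone 12.

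DNA replication genes leaned upward, with 22 of 43 called higher and 4 lower (51.2% and 9.30%, median 0.96). When the spread came from the 4 compared libraries alone, 17 were called higher and 2 lower. All 6 subunits of the MCM2 to MCM7 helicase, which unwinds DNA at replication forks, were called higher, from 1.62 for Mcm7 to 2.96 for Mcm3. Mcm2, Mcm4, Mcm5 and Mcm6 were called at 1.64, 2.46, 2.69 and 1.64. Mcm3 was at 70.9 and 66.4 CPM in WT and 8.65 and 8.99 CPM in siControl (2.96 ± 0.27, adjusted p = 6.21e-06), and Mcm4 at 105 and 91.4 CPM in WT and 18.6 and 17.2 CPM in siControl (2.46 ± 0.23, adjusted p = 6.86e-06). The helicase loaders Cdc6 and Cdt1 were higher too: Cdc6 was at 196 and 182 CPM in WT and 37.8 and 41.8 CPM in siControl (2.25 ± 0.25, adjusted p = 1.81e-05). Rrm1, of the enzyme that makes deoxynucleotides, was called at 1.85 ± 0.23. Falls included Orc5 of the origin recognition complex, at 66.3 and 137 CPM in WT and 675 and 392 CPM in siControl (-2.39 ± 0.32), and Dut, which clears dUTP, at 151 and 175 CPM in WT and 672 and 558 CPM in siControl (-1.91 ± 0.32).

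Cell cycle regulators were mixed, with 10 of 37 called higher and 9 lower (27.0% and 24.3%). Wee1, the kinase that restrains entry into mitosis, was at 64.00 and 110.3 CPM in WT and 13.9 and 16.3 CPM in siControl (2.53 ± 0.37, adjusted p = 0.000109). Its oocyte paralogue Wee2 was at 32.3 and 8.65 CPM in WT and 649 and 344 CPM in siControl (-4.60 ± 1.34), a call lost without WT replicate 2 (adjusted p = 0.132) or siControl replicate 1 (0.0728). Ccne2, an S-phase cyclin, was at 42.9 and 35.4 CPM in WT and 157 and 142 CPM in siControl (-1.93 ± 0.27, adjusted p = 8.73e-05), while Ccnb1, the mitotic cyclin, was at 4105 and 4554 CPM in WT and 1972 and 2854 CPM in siControl (0.84 ± 0.19). Position in the cell cycle at collection was not measured.

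**Figure D3:**
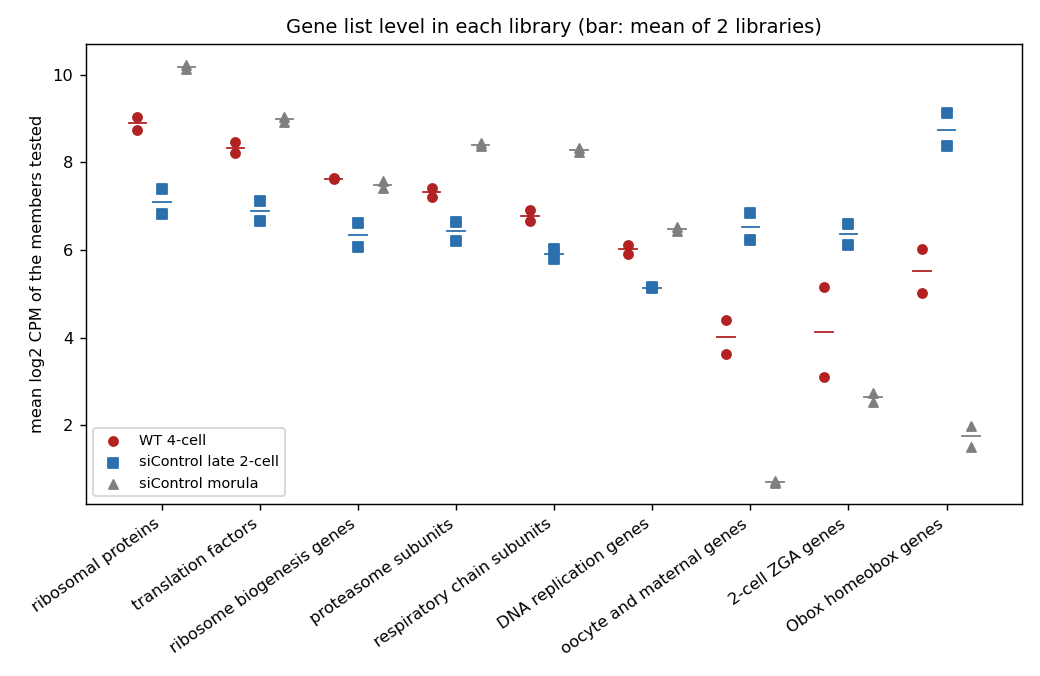
Mean log2 CPM of the tested members (y axis) of 9 gene lists in each library, 1 point per library, for WT 4-cell, siControl late 2-cell and siControl morula pools, with a bar at the mean of 2 libraries. For ribosomal proteins the WT pools stood at 8.73 and 9.04 against 6.82 and 7.38 in siControl late 2-cell pools, and for 2-cell genes at 5.15 and 3.10 against 6.12 and 6.60.

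Pcgf5 encodes a RING-finger partner of variant Polycomb repressive complex 1 (PRC1) and is the gene the series perturbs. By the labels it was perturbed on neither side here. It was at 325 and 292 CPM in WT and 315 and 806 CPM in siControl. A WT value fell between the siControl values, and the difference was not called (-0.86 ± 0.35, adjusted p = 0.0645). It passed with DESeq2 size factors at -1.04 (adjusted p = 0.0288), with the DESeq2 Wald test (adjusted p = 0.0147), with limma on TPM (adjusted p = 0.0227) and without siControl replicate 1 at -1.42 (adjusted p = 0.00413). PRC1 monoubiquitinates histone H2A, and its genes went both ways, with 6 of 36 called higher and 8 lower (16.7% and 22.2%), close to the shares of all genes. Bmi1, another RING-finger partner, also called Pcgf4, was at 431 and 255 CPM in WT and 1288 and 1249 CPM in siControl (-1.89 ± 0.33, adjusted p = 0.000469). Cbx2, a chromodomain reader of canonical PRC1, was at 1.81 and 0.936 CPM in WT and 15.4 and 8.17 CPM in siControl (-3.10 ± 0.69). Both WT values of each gene lay below both siControl values.

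Rises among PRC1 genes included partners of variant complexes. Kdm2b, which brings variant PRC1 to CpG islands, was at 74.8 and 81.6 CPM in WT and 23.7 and 26.9 CPM in siControl (1.63 ± 0.26, adjusted p = 0.000237). Mga, a DNA-binding member of the E2F6 complex, was at 415 and 434 CPM in WT and 96.8 and 143 CPM in siControl (1.82 ± 0.23, adjusted p = 3.92e-05). Usp7, a deubiquitinase bound to PRC1, was called at 1.40 ± 0.18. L3mbtl2, also of the E2F6 complex, was called at 1.28 ± 0.39 and lost its call without WT replicate 1 (adjusted p = 0.129) or siControl replicate 1 (0.113), while its partner Max was called lower at -2.15 ± 0.40. PRC2, which methylates histone H3 at lysine 27, had 1 of 12 subunits called in each direction. Eed was at 131 and 210.4 CPM in WT and 123 and 99.4 CPM in siControl (0.62 ± 0.22, adjusted p = 0.0387), and its call was lost without WT replicate 2 (0.463) or either siControl library (0.0529 and 0.214). It was also lost with DESeq2 size factors (0.137), the DESeq2 Wald test (0.14), limma on TPM (0.36), no filter on low counts (0.0592), the 4 libraries alone (0.236) and the replicate block (0.0559). Phf1, a PRC2 accessory subunit, was at 3.00 and 0.760 CPM in WT and 13.2 and 8.62 CPM in siControl (-2.54 ± 0.82, adjusted p = 0.0235), and lost its call without WT replicate 2 (0.16) or siControl replicate 1 (0.104). The catalytic subunit Ezh2 was at 93.2 and 115 CPM in WT and 128 and 116 CPM in siControl and was not called, but passed with limma on TPM at adjusted p = 0.0286.

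Of 83 developmental genes known as Polycomb targets, 48 passed the filter, 2 of them called higher and 6 lower (4.17% and 12.5%, median -1.39). Sox21, a transcription factor with uneven levels among 4-cell blastomeres, was at 10.5 and 21.98 CPM in WT and 0.0228 and 0 CPM in siControl (9.77 ± 1.15, adjusted p = 2.75e-05). Gsc, a homeobox gene of the later organiser, was at 2.57 and 1.46 CPM in WT and 0.137 and 0.261 CPM in siControl (3.33 ± 0.90, adjusted p = 0.00944, and 0.0816 without siControl replicate 1). Nkx6-2, a homeobox gene of the nervous system, was at 0.563 and 0.585 CPM in WT and 7.53 and 3.62 CPM in siControl (-3.27 ± 0.63, adjusted p = 0.00104), and Hoxb2 had no read in WT and 3.06 and 4.14 CPM in siControl. These levels were low in all pools, and a member that passed the filter only through the group where it was higher had to differ, so these shares say little of the 83 as a whole.

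DNA methylation and silencing genes had 9 of 28 members called higher and 4 lower (32.1% and 14.3%, median 0.25, which was -0.03 with limma on TPM). Tet1, an oxidase of 5-methylcytosine, was at 143 and 151 CPM in WT and 18.6 and 11.8 CPM in siControl (3.27 ± 0.32, adjusted p = 8.17e-06). Its paralogue Tet3, which acts in the zygote, was at 13.3 and 6.26 CPM in WT and 39.05 and 22.9 CPM in siControl (-1.66 ± 0.50), a call lost without WT replicate 2 (adjusted p = 0.142) or siControl replicate 1 (0.118). Kdm1a, a histone H3 lysine 4 demethylase, was at 82.3 and 94.5 CPM in WT and 16.9 and 22.6 CPM in siControl (2.16 ± 0.24, adjusted p = 1.85e-05). Trim28, the corepressor of zinc-finger proteins at retroelements, was called at 1.21. Imprinted genes had 7 of 27 called higher and 3 lower (25.9% and 11.1%). Igf2r, a receptor expressed from the maternal allele in later tissues, was at 73.4 and 95.8 CPM in WT and 7.87 and 7.76 CPM in siControl (3.43 ± 0.29, adjusted p = 5.24e-06). Kcnq1ot1, a paternally expressed noncoding RNA, was at 63.8 and 81.6 CPM in WT and 13.4 and 9.89 CPM in siControl (2.64 ± 0.40, adjusted p = 0.000166). Sgce, paternally expressed in later tissues, was called at 3.35 ± 0.49. Allelic origin was not read here.

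Lineage genes of the later blastocyst had calls in both directions. Pluripotency genes had 3 of 25 called higher and 6 lower (12% and 24%), at a median of 0.01. Trophectoderm genes had 5 of 26 called higher and 5 lower (19.2% each way), at a median of -0.75 with 9 of 26 above 0. Primitive endoderm genes had 1 of 13 called higher and 2 lower (7.69% and 15.4%), at a median of -1.34 with 2 of 13 above 0, where the median of all genes was -0.21. Klf2, a pluripotency factor, was at 36.5 and 50.2 CPM in WT and 7.46 and 9.59 CPM in siControl (2.35 ± 0.42, adjusted p = 0.000575). Sall4 was at 96.9 and 108 CPM in WT and 21.7 and 40.8 CPM in siControl (1.72 ± 0.40, adjusted p = 0.00351), a call lost without siControl replicate 1 (adjusted p = 0.0576). Pou5f1, the core pluripotency factor, was low in all 4 pools, at 1.94 and 1.87 CPM in WT and 9.68 and 7.12 CPM in siControl (-2.14 ± 0.62), and its call was lost without any single library but siControl replicate 2, at adjusted p from 0.0579 to 0.079. Nanog was not called, at 4.25 and 3.27 CPM in WT and 1.28 and 3.17 CPM in siControl.

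Tead4, which turns on the trophectoderm programme, was at 31.97 and 36.95 CPM in WT and 3.42 and 5.11 CPM in siControl (3.02 ± 0.43, adjusted p = 0.000102). Hand1, a trophoblast factor, was at 56.2 and 41.1 CPM in WT and 6.71 and 11.00 CPM in siControl (2.46 ± 0.34, adjusted p = 8.19e-05). Krt18, a keratin of the later trophectoderm, went down, at 1.81 and 0.994 CPM in WT and 11.8 and 7.31 CPM in siControl (-2.77 ± 0.75, adjusted p = 0.00963), and lost its call without WT replicate 2 (0.0844) or siControl replicate 1 (0.0515). Gata4 of the primitive endoderm list was called higher at 1.07 ± 0.39 (adjusted p = 0.0407), and lost its call without the same libraries (0.216 and 0.267). That call was also lost with DESeq2 size factors, the DESeq2 Wald test, limma on TPM, no filter on low counts, the 4 libraries alone and the replicate block, at adjusted p from 0.0581 to 0.117. Members of that list called lower were Pdgfra and Lamb1. Pdgfra was at 0.125 and 2.10 CPM in WT and 13.5 and 6.23 CPM in siControl (-3.13 ± 0.96, adjusted p = 0.0179). Lamb1 was at 9.01 and 8.19 CPM in WT and 22.4 and 21.0 CPM in siControl (-1.34 ± 0.42, adjusted p = 0.0214). Neither call held in every fit with a library left out. Gata6 was not called (1.12 ± 0.46, adjusted p = 0.065). Among 33 genes of the 4-cell to morula interval, 8 were called higher and 5 lower (24.2% and 15.2%). Ctnnb1, encoding beta-catenin of cell junctions, was at 86.3 and 80.9 CPM in WT and 24.9 and 43.9 CPM in siControl (1.28 ± 0.26, adjusted p = 0.00146), and Prkci, a polarity kinase, was at 10.9 and 18.2 CPM in WT and 61.7 and 61.4 CPM in siControl (-2.08 ± 0.44, adjusted p = 0.00189). Amotl2, a regulator of Hippo signalling, was at 3.50 and 18.2 CPM in WT and 1.53 and 2.01 CPM in siControl. Its call (2.62 ± 0.67, adjusted p = 0.00695) was lost without WT replicate 2 (0.252) or siControl replicate 1 (0.0667).

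Among single genes, the largest rises by fold were from levels at or near 0. Sycn, known from zymogen granules of the pancreas, had 9.07 and 27.2 CPM in WT and no read in siControl, at least 427-fold higher (adjusted p = 0.00273), and had 120.4 and 151 CPM in the siControl morula libraries. Npsr1, a neuropeptide receptor, was at 13.3 and 12.04 CPM in WT and 0 and 0.0373 CPM in siControl (9.33 ± 1.27, adjusted p = 6.99e-05). Lincenc1, a noncoding RNA of naive embryonic stem cells, was at 22.1 and 14.97 CPM in WT and 0 and 0.112 CPM in siControl (8.52 ± 0.92, adjusted p = 3.78e-05). Its RNA was at 0 in both siControl morula libraries, so that among these 3 groups it was highest in WT 4-cell pools. Fez1, a transport adaptor known from neurons, was at 47.5 and 47.3 CPM in WT and 2.01 and 1.60 CPM in siControl (4.71 ± 0.43, adjusted p = 6.21e-06). Tgfb1, a secreted signalling factor, was at 16.1 and 17.1 CPM in WT and 0.342 and 0.858 CPM in siControl (4.81 ± 0.59, adjusted p = 3.34e-05). Zfp180, a zinc-finger gene, was at 30.5 and 23.9 CPM in WT and 1.35 and 0.597 CPM in siControl (4.77 ± 0.52, adjusted p = 1.55e-05). Crygs, Plac9a, Rftn2, Ttc30a1 and Rhox3a completed the 12 largest rises, at 5.63, 5.16, 4.73, 5.14 and 8.89. Rhox3a, of a multicopy cluster on the X chromosome, had 3.07 and 40.3 CPM in WT and lost its call when any library but WT replicate 1 was left out, at adjusted p up to 0.12, and Ttc30a1 lost its call without siControl replicate 1 (0.0841).

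The largest rises in CPM besides Dppa3 included Map1lc3b and Gabarapl2, which encode ubiquitin-like proteins of the autophagy membrane. Map1lc3b was at 7894 and 8839.9 CPM in WT and 2118 and 3996 CPM in siControl (1.45 ± 0.24, adjusted p = 0.000308), and Gabarapl2 at 3557 and 5064 CPM in WT and 753 and 1808 CPM in siControl (1.75 ± 0.33, adjusted p = 0.000763). Tmem41b, a lipid scramblase needed for autophagosomes, was at 3863 and 4902 CPM in WT and 1033 and 1755 CPM in siControl (1.65 ± 0.23, adjusted p = 7.75e-05). Sumo2, a protein modifier, was at 3979 and 5624 CPM in WT and 784 and 1329 CPM in siControl (2.18 ± 0.30, adjusted p = 7.96e-05). Hprt, of purine salvage, was at 2631 and 5492 CPM in WT and 843 and 1085 CPM in siControl, and Timd2 at 3847 and 6693 CPM in WT and 1243 and 2142 CPM in siControl. For each of these genes the groups did not overlap.

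Among the largest falls in CPM were genes outside the maternal list. Mdm4, a partner of p53, was at 1592 and 887 CPM in WT and 5722 and 6109 CPM in siControl (-2.25 ± 0.31, adjusted p = 6.76e-05). Tcl1, an AKT cofactor supplied by the egg, was at 131 and 129 CPM in WT and 4338 and 1592 CPM in siControl (-4.51 ± 1.27, adjusted p = 0.0175). Spin1, a histone reader abundant in the egg, was at 248 and 208 CPM in WT and 3249 and 1553 CPM in siControl (-3.40 ± 1.01, adjusted p = 0.0223). For Tcl1 and Spin1 the WT pools lay close together and the siControl pools far apart, and both calls were lost when any library but siControl replicate 2 was left out, at adjusted p from 0.0811 to 0.123. Sycp3, of the meiotic chromosome axis, was at 1156 and 615 CPM in WT and 2951 and 3311 CPM in siControl (-1.82 ± 0.43, adjusted p = 0.00467, and 0.0577 without WT replicate 2). Mphosph6, an exosome cofactor, was called at -2.60 ± 0.65, and lost its call without WT replicate 1 (0.0625) or siControl replicate 1 (0.0539).

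By fold, the 12 largest falls had no read in either WT library. Serpinb3b, a serine protease inhibitor, had 12.8 and 15.00 CPM in siControl and was at least 153-fold lower in WT (adjusted p = 0.0001). Slc25a54, a mitochondrial carrier, had 16.1 and 31.5 CPM in siControl and was at least 262-fold lower in WT (adjusted p = 0.000211). Cdh9, a cadherin, had 11.6 and 13.6 CPM in siControl and Clvs1, a lipid-binding protein, 22.1 and 9.81 CPM in siControl. Cpb1, OTTMUSG00000016609, Zfp667, Cd300ld and Mmp1b were also at 0 in WT, with means over 10 CPM in siControl, and Cpb1 lost its call when any library but siControl replicate 2 was left out, at adjusted p from 0.0673 to 0.115.

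**Figure D4:**
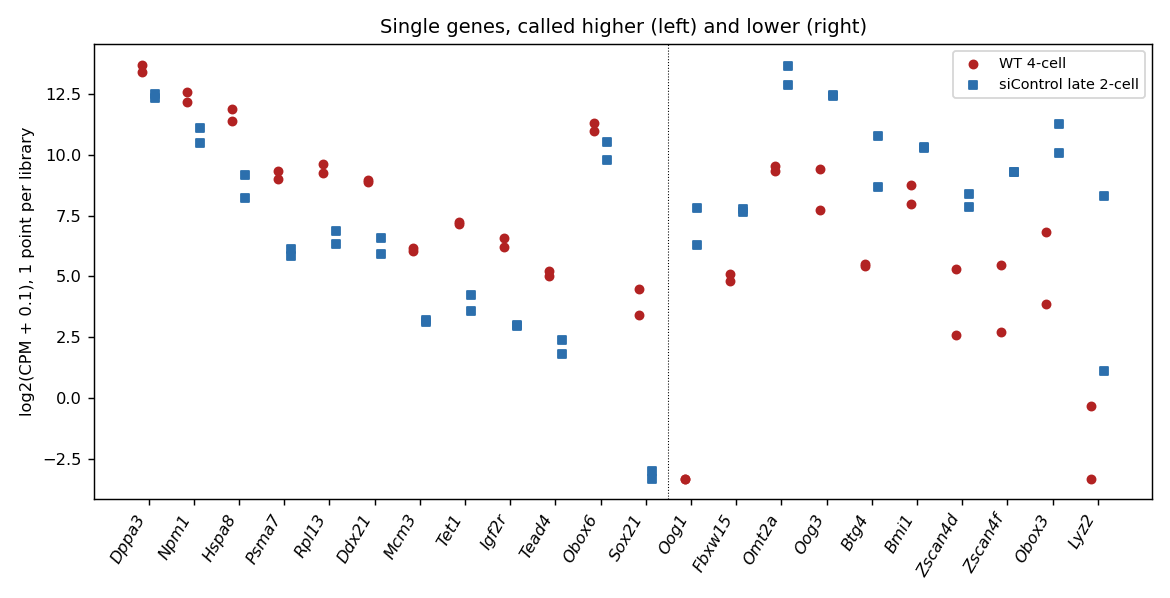
Level of 22 single genes as log2(CPM + 0.1), 1 point per library, WT 4-cell left of siControl late 2-cell, with 12 genes called higher left of the dotted line and 10 called lower right of it. WT pools lie above siControl pools on the left and below them on the right, and Lyz2 shows siControl replicate 1 far above siControl replicate 2.

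Several blood and immune genes were lower in WT, and the RNA of some stood out in siControl replicate 1. Hba-a2, which encodes the alpha chain of haemoglobin, was at 47.9 and 19.4 CPM in WT and 248 and 245 CPM in siControl (-2.87 ± 0.44, adjusted p = 0.000184), and kept its call without each of the 4 libraries, at adjusted p up to 0.00282. Cd74, the invariant chain of class II antigen presentation, was at 18.96 and 1.34 CPM in WT and 143 and 75.4 CPM in siControl (-3.43 ± 0.85, adjusted p = 0.00753), and kept its call without each library too, at adjusted p up to 0.038. For both genes the siControl libraries were each above both WT libraries, and reads shared with the copy Hba-a1 make the level of Hba-a2 uncertain. Lyz2, the lysozyme of macrophages and neutrophils, was at 0.688 and 0 CPM in WT and 317 and 2.05 CPM in siControl, and its call was lost without siControl replicate 1 (-2.61, adjusted p = 0.213) or WT replicate 2 (0.0735). H2-Aa, an antigen-presenting class II chain, was at 0 and 0 CPM in WT and 26.7 and 1.01 CPM in siControl, and Fcer1g, an Fc receptor chain, at 0 and 0 CPM in WT and 24.8 and 0.821 CPM in siControl. Both were among the 12 largest falls and both lost their calls without siControl replicate 1, at adjusted p = 0.106 and 0.123, and without WT replicate 2, at 0.0562 and 0.0622. Of 11 blood and immune markers 5 passed the filter and 3 of these were called lower (60%, against 18.3% of all genes). A member that passed the filter only through siControl had to be lower in WT, so this count is a description. Summed CPM of the 5 were 77.0 and 26.1 in WT and 727 and 334 in siControl. Of the list's leukocyte genes, Tyrobp had 0 counts in both WT libraries, against 786 in siControl replicate 1 and 0 in siControl replicate 2, and Ptprc had 0 in both WT libraries, against 85 and 0. Of its red cell genes other than Hba-a2, Alas2, Hbb-bs and Hbb-bt were at 0 counts in all 4 libraries, and Hba-a1 was at 0 and 0.702 CPM in WT and 4.34 and 1.38 CPM in siControl. The part of such RNA in the other falls was not tested. Without siControl replicate 1, 1510 of the 2694 genes called lower were called lower again.

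Markers of other cell types were read too, and the origin of their RNA was not tested. Cumulus and granulosa markers passed the filter for 3 of 16 genes, of which 2 were called lower, with summed CPM of 2.82 and 0.877 in WT and 21.3 and 26.0 in siControl, and Fshr, Amh and Cyp11a1 were at 0 counts in all 4 libraries. Tnfaip6, of the cumulus matrix, was at 1.75 and 0.760 CPM in WT and 17.3 and 20.4 CPM in siControl (-3.90 ± 0.78, adjusted p = 0.00153). Sperm and testis markers passed for 6 of 12 genes, of which 3 were called lower, with summed CPM of 32.0 and 34.4 in WT and 109 and 112 in siControl. Members of these lists that passed the filter only through siControl had to be lower in WT, so the counts are a description, beside 18.3% of all genes called lower. Tnp1, a transition protein of sperm chromatin, was at 0.125 and 0.175 CPM in WT and 5.75 and 7.98 CPM in siControl (-5.47 ± 0.95, adjusted p = 0.000469). Their part in the stage difference was not tested. Y-linked genes, which depend on how many embryos of a pool were male, had summed CPM of 116 and 150 in WT and 62.7 and 232 in siControl, and of 8 tested 1 was called in each direction.

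Of these groups only the siControl embryos had been electroporated with RNA, so genes of the innate response to RNA were read. Of 31 listed, 22 passed the filter, with 1 called higher and 4 lower (4.55% and 18.2%, median -1.42). Of all genes tested 20.2% were called higher and 18.3% lower, with a median of -0.21. The share of falls was near that of all genes, while only 6 of the 22 fold changes were positive. With limma on TPM 12 members were called lower, where 5181 of all 14687 genes were, and with the 4 compared libraries alone 3 members were. A member that passed the filter only through siControl had to be lower in WT. Ddx58, which encodes the RNA sensor RIG-I, was at 2.06 and 17.8 CPM in WT and 57.01 and 48.8 CPM in siControl (-2.41 ± 0.64, adjusted p = 0.00831). Ifi44, an interferon-induced gene, was at 0 in WT and 4.02 and 4.07 CPM in siControl (adjusted p = 0.0143), a call lost without either WT library (0.0591 and 0.0779). Irf7, a regulator of interferon genes, was at 1.56 and 0.409 CPM in WT and 6.50 and 8.77 CPM in siControl (-2.95 ± 1.06, adjusted p = 0.0385), and lost its call when any library but WT replicate 1 was left out, at adjusted p up to 0.203. Stat2, a transducer of interferon signals, went up, at 26.2 and 27.2 CPM in WT and 7.92 and 9.59 CPM in siControl (1.61 ± 0.43, adjusted p = 0.0089, and 0.0759 without siControl replicate 1). Whether these levels follow stage or electroporation cannot be told apart. Targets of p53 had 4 of 22 called higher and 5 lower (18.2% and 22.7%), near the shares of all genes. Aen, a nuclease induced by p53, was at 36.04 and 65.8 CPM in WT and 12.3 and 13.5 CPM in siControl (1.98 ± 0.28, adjusted p = 9.37e-05), and Bax, a cell death effector, was called at 1.51 ± 0.24. Cdkn1a, a cell cycle inhibitor, was at 31.9 and 29.8 CPM in WT and 76.7 and 53.7 CPM in siControl (-1.08 ± 0.24, adjusted p = 0.00292).

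Promoter letters were compared between genes called higher and lower, over windows of 300 bases from 250 before to 50 after the start site (RefSeq, GRCm38.p6), the first listed window per gene. Of the tested genes 11133 had a window, among them 2265 called higher and 2065 called lower. The ETS core CCGGAAG was in 28.0% of promoters of genes called higher, 11.4% of those called lower, 16.6% of all tested and 9.12% of all 27025 promoters given. Among genes averaging over 100 CPM in the group where they were higher, shares were 29.0% for 894 rises and 19.8% for 405 falls. At least 10 CG dinucleotides stood in 89.4% of promoters of genes called higher, 65.6% of those called lower and 75.2% of all tested. TATAAA was in 6.67% of promoters of genes called higher, 10.2% of those called lower and 8.18% of all tested. Over 100 CPM its shares lay closer, at 7.61% for the 894 rises and 8.89% for the 405 falls. Ribosomal protein promoters held CCGGAAG in 37.3% of 67, and proteasome promoters in 34.4% of 32. Of 25 promoters of 2-cell genes, 32.0% held TATAAA and 0 held CCGGAAG, and of 46 maternal promoters 17.4% held TATAAA and 2.17% held CCGGAAG. The cyclic AMP response element TGACGTCA was in 4.46%, 2.18% and 3.13% of the same 3 sets, and the GC box GGGCGG in 64.3%, 56.2% and 59.6%. The NRF1 consensus was in 13.0% of promoters of genes called higher, 8.18% of those called lower and 9.65% of all tested. All motifs were searched on both strands, and none of them contains another.

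Promoters of 3 of the named genes called higher show the ETS core beside the start site, in windows with many CG pairs. They are picked examples, as 28.0% of promoters of genes called higher held it. Capitals mark CCGGAAG, whose first base lies 16 bases before the start site of Heatr1, 6 before that of Psmd13 and at position 5 for Rpl26, with the start site as position 1. The windows are chr13:12395125-12395424 on the plus strand, chr7:140882144-140882443 on the plus strand and chr11:68901316-68901615 on the plus strand of GRCm38.p6, with 16, 22 and 21 CG pairs.
Heatr1: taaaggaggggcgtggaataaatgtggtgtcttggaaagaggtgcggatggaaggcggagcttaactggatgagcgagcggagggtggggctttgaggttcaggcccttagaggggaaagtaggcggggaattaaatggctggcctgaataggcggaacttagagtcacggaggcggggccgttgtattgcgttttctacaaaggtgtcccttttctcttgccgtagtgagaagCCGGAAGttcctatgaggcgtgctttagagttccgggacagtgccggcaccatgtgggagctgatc
Psmd13: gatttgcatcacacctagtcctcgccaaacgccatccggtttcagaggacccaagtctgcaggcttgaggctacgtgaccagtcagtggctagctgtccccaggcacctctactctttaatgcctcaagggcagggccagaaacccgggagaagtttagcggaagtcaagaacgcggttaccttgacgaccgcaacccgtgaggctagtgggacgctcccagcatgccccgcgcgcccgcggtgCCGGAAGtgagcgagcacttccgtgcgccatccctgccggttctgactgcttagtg
Rpl26: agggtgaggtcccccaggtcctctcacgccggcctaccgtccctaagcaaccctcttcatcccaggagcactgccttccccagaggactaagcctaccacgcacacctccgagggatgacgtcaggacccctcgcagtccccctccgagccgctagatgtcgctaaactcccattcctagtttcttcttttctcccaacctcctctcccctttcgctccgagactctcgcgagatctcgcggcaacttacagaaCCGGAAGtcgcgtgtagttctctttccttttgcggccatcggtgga

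Promoters of 3 named genes called lower show TATAAA in windows with few CG pairs. These too are picked examples, as only 10.2% of promoters of genes called lower held it. Capitals mark TATAAA, whose first base lies 29 bases before the start site of Oog3, 65 before that of Zscan4d and 41 before that of Serpinb3b. Their windows are chr4:144162602-144162901, chr7:11166099-11166398 and chr1:107161065-107161364, all on the minus strand of GRCm38.p6 and printed 5' to 3' along the gene, with 1, 3 and 0 CG pairs. A match of letters is a description and not a bound site.
Oog3: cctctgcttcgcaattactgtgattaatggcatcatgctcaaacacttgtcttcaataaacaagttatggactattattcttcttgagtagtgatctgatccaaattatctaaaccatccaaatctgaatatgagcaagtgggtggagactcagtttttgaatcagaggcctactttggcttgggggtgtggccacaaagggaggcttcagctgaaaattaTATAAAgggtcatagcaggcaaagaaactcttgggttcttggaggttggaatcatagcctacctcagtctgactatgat
Zscan4d: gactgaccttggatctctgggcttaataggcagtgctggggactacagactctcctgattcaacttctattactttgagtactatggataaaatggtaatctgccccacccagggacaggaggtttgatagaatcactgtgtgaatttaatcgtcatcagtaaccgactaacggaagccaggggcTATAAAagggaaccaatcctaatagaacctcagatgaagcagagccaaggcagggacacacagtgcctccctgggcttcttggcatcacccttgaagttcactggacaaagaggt
Serpinb3b: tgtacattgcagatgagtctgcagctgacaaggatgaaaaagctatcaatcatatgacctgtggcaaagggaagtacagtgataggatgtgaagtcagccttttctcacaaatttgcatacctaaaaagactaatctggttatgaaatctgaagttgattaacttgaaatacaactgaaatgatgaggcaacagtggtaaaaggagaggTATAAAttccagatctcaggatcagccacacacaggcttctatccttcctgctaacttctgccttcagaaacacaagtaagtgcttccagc

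The same stage difference was read in libraries that share none with the 4 above. These were the 4-cell pools labelled Pcgf5MT2C_Mm_Hetero_KO (3 libraries) and Pcgf5MT2C_Mm_Homo_KO (3 libraries), averaged, against the late 2-cell pools electroporated with Pcgf5 siRNA (siPcgf5, 2 libraries). The 4-cell pools are called knockout pools here after that label, which names MT2C_Mm beside Pcgf5. Pcgf5 RNA was present in them, at 334, 252 and 284 CPM in Hetero_KO and 191, 211 and 162 CPM in Homo_KO. Both sets of libraries carry the same join of stage, electroporation and experiment, and in this one both sides are perturbed in addition. There 2962 genes were called higher (20.2% of those tested) and 2995 lower (20.4%). Genes called higher in both numbered 2342, which is 78.8% of the rises in WT against siControl and 79.1% of those in the knockout pools against siPcgf5. Genes called lower in both numbered 1891, or 70.2% and 63.1% of the falls. Opposite calls were made for 4 genes, and 5551 of the 5665 genes called in WT against siControl had the same sign. Testing the difference between the stage differences gave 0 genes with edgeR at an adjusted p under 0.05 and 1183 at an unadjusted p under 0.05. Even Pcgf5, knocked down on the siPcgf5 side only, was not called in that test. The 0 therefore cannot show that the 2 sets agree.

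Named genes can be set side by side in the 2 sets. Psma7 changed by 3.17 in WT over siControl and by 2.96 in the knockout pools over siPcgf5, Ncl by 1.87 and 1.74, Tet1 by 3.27 and 2.78, and Oog3 by -3.65 and -3.13. For the 88 ribosomal proteins 79 were called higher and 1 lower in the knockout pools, at a median of 1.19 against 1.86 in WT over siControl. For the 59 maternal genes 29 were called lower, at a median of -1.48 against -2.59. For 2-cell genes 19 of 45 were called lower, at a median of -1.74 against -1.89. Lsm1, called lower in WT over siControl at -1.12, was at -0.07 in the other set and not called, and Oog1 was at -3.83 there and not called (adjusted p = 0.0738). Pcgf5 was -0.86 in WT over siControl and 1.70 in the set whose late 2-cell side was knocked down for it.

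**Figure D5:**
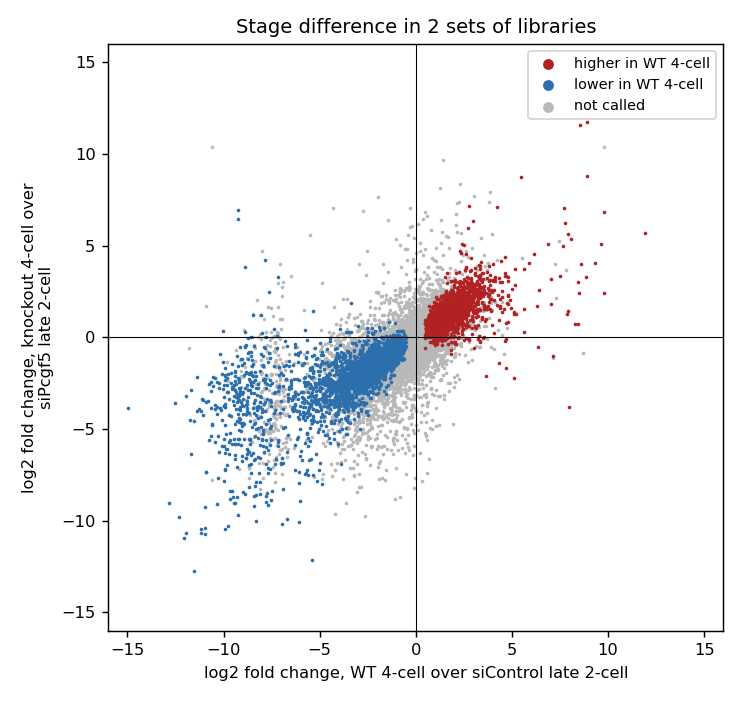
Log2 fold change of the knockout 4-cell pools over siPcgf5 late 2-cell pools (y axis) against that of WT 4-cell over siControl late 2-cell pools (x axis), 1 point per gene, coloured by the call in WT over siControl. Of the 5665 coloured genes 5551 have the same sign on both axes, and the genes far to the left, at or near 0 in WT, spread widely along the y axis.

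Levels in the siControl morula libraries, collected at 72 h and electroporated with the same siRNA, placed the WT pools between the siControl stages for several lists. Ribosomal proteins averaged 8.73 and 9.04 log2 CPM in WT 4-cell pools, against 6.82 and 7.38 in siControl late 2-cell pools, and stood at 10.22 and 10.13 in siControl morulae. Respiratory chain genes averaged 6.66 and 6.90 in WT 4-cell pools, against 5.80 and 6.01 in siControl late 2-cell pools, and 8.23 and 8.32 in morulae. Maternal genes averaged 4.39 and 3.63 in WT 4-cell pools, against 6.84 and 6.22 in siControl late 2-cell pools, and 0.69 and 0.72 in morulae. Ribosome biogenesis genes did not follow this order, at 7.62 and 7.63 in WT 4-cell pools and 7.57 and 7.41 in morulae, against 6.06 and 6.61 in siControl late 2-cell pools. Tet1 was highest in WT 4-cell pools, at 143 and 151 CPM in WT, against 18.6 and 11.8 CPM in siControl and 39.6 and 24.9 CPM in siControl morulae. Igf2r was at 73.4 and 95.8 CPM in WT, against 7.87 and 7.76 CPM in siControl and 75.3 and 70.01 CPM in siControl morulae, with both WT pools above or close to the morulae.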

How the data were processed

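RNA of pooled embryos was sequenced after SMART-Seq v4 PLUS amplification. The mm10 build and, of the tools, RSEM 1.3.3 and STAR 2.7.10 are named per the submitters' processing notes, which give no role or order. The deposited tables hold RSEM expected counts and TPM per gene, named by symbol. Filters and strand settings are not given in the sources used here. The 4 ChIP libraries were not used here.

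Expected counts were rounded to whole numbers. All 16 RNA libraries in 7 groups entered 1 quasi-likelihood fit in edgeR 4.0.16 (R 4.3.3) with TMM scaling, and the contrast was WT 4-cell over siControl late 2-cell. Genes were kept by edgeR's expression filter, set to a minimum count of 10 and applied to the 4 libraries compared. A gene could pass it through 1 group while at 0 in the other. P-values were adjusted by Benjamini-Hochberg over 14687 genes with a threshold of 0.05. With 2 libraries a group an exact permutation test cannot go below p = 0.333, so single genes were tested only in models fitted across all genes, of which this fit is the main one. Fold bounds against a group at 0 use a floor of 3 counts over the group, for counting error only. Summed counts ran from 14310634 to 55620137 over the other 12 RNA libraries. The fit was tested on simulated data. Same-numbered libraries deviated from their group means with a correlation of 0.0578 over 14687 genes, and no label pairs them.

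The libraries compared and the 29 gene lists were chosen with earlier results of these data known. Named genes are Pcgf5, the 12 largest rises and falls by fold among called genes with groups that do not overlap and at least 10 CPM, leaving out predicted genes and pseudogenes, the 8 largest rises and falls in CPM, and the 4 members of each list with the smallest p. Not all of these are printed. Tyrobp, Ptprc, Alas2, Hbb-bs, Hbb-bt, Hba-a1, Fshr, Amh and Cyp11a1 are further members of the marker lists, printed outside that rule. Zp2, Bmp15, Dcp2, Edc3, Cnot7, Cnot6l, Btg4, Zfp352, Zscan4f, Zscan4c, Usp17le, Tmem92, Dppa4, Ubtf, Psme4, Atf3, Hspb1, Hk1, Pdk2, Tbp, Polr2a, Tbpl2, Mcm2, Mcm5, Mcm6, Mcm7, Orc5, Dut, Ccnb1, Wee2, Cbx2, Max, Ezh2, L3mbtl2, Trim28, Tet3, Pou5f1 and Nanog were named after their values were seen. Reads shared among copies make single members of the Zscan4, Usp17l, Obox, Oog, Omt2 and Rhox3 families uncertain. Alternatives were DESeq2 size factors, the DESeq2 1.42.0 Wald test, limma 3.58.1 on log2(TPM + 1) of the deposited TPM, other filters, the 4 compared libraries alone, the replicate block and leaving out each library. Thinning of counts and leaving out libraries of the knockout and siPcgf5 groups were added after the data were seen.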

Additional observations from a re-analysis of the deposited data

How the results depend on the processing

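With limma on log2(TPM + 1), 5181 genes were lower in WT 4-cell embryos in place of 2694, and 4689 in the knockout pools against siPcgf5 in place of 2995. With the spread estimated from the 4 compared libraries alone, 1707 genes were higher in WT 4-cell embryos in place of 2971. Leaving out each compared library gave 2068 to 2660 genes higher and 1348 to 2217 lower in WT 4-cell embryos. In the knockout pools against siPcgf5, leaving out each library of these groups gave 1721 to 2992 genes higher and 1694 to 3193 lower, the fewest without siPcgf5 replicate 2, and 1965 and 1928 without siPcgf5 replicate 1. With the WT and siControl libraries, which enter there only through the shared spread, left out as well, the counts reached 2997 and 3287. The cause of these differences was not tested. With the replicate block, which rests on a shared number and no stated pairing, 2890 genes were higher and 2562 lower. Of all genes called in WT over siControl, 52.4% were higher, against 44.7% with DESeq2 size factors, 43.6% with the DESeq2 Wald test, 31.9% with limma and 42.1% with the 4 libraries alone, while the median of all genes moved by -0.19, -0.19, -0.11 and -0.03. Beyond a log2 fold change of 1 there were 2434 genes higher and 2504 lower. Among named genes, calls were lost by 39 without siControl replicate 1, 35 without WT replicate 2, 21 without WT replicate 1, 11 without siControl replicate 2, 16 with the 4 libraries alone and 2 to 10 under each other alternative, and no named gene changed sign. Further calls were lost besides those given beside each gene. With the 4 libraries alone these were Dppa3 (adjusted p = 0.0815), Map1lc3b (0.0547), Ccnb1 (0.156), Ddx58 (0.0646), Gsc (0.0786), Pdk2 (0.0623), Tmem92 (0.0654), Zscan4c (0.0883), Obox6 (0.132), Edc3 (0.0701), L3mbtl2 (0.0671) and Amotl2 (0.059). With limma they were Polr2a (0.0732) and L3mbtl2 (0.0627). Without a filter Oog1 (0.0658), Cpb1 (0.061), Cnot6l (0.0619), Btg4 (0.0756), Zscan4c (0.0725) and Rhox3a (0.051) lost theirs. Btg4 (0.0573) and Zscan4c (0.0534) lost theirs also with the filter over all 7 groups. H2-Aa lost its call with the DESeq2 Wald test (0.0699), Irf7 with the replicate block (0.0647) and Obox1 with thinned counts (0.0541). The DESeq2 Wald test gave no adjusted p for Tcl1, Btg4 and Obox5. Depth limits genes at 0 in WT to lower bounds of their fold change.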
